A study of Mus musculus with 5 samples.

Results

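The genes of the histone lysine methyltransferases and demethylases were examined in the transcriptome of EpoR-null neural tubes. Members were the rows of the count tables whose symbol belongs to the Kdm, Setd, Mll, Ehmt, Suv39h, Suv420h, Ezh or Prdm series, with Nsd1, Whsc1, Whsc1l1, Ash1l and Dot1l, and without the Y-linked Kdm5d. This choice by name gave 54 genes of the 23284 in the tables, 15 of them erasers (demethylases), 21 writers (methyltransferases grouped by the histone lysine of their family, with Mll5 placed by family), 14 Prdm genes and 4 further Setd genes. The Prdm genes were counted apart from the writers, including Prdm2, since methyltransferase activity is known for only some of them. RNA-seq was done on polyA-selected RNA of neural tubes, the tissue from which brain and spinal cord form, dissected from mouse embryos labelled E8.5. The study's methods give a slightly later embryonic age. The groups were 2 EpoR-null libraries (EpoR -/-, both alleles of the erythropoietin receptor gene deleted), 2 wild type libraries (EpoR +/+) and 1 library labelled heterozygote (EpoR +/-), the last 3 pooled as littermate controls. The deletion is carried in every cell of the embryo, embryos came from heterozygous matings, and none was treated. The sex of the embryos and the part of Epor that is deleted are not given in the sources used here, and the sample titles name Epo where the genotype fields name EpoR.

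Histones carry methyl groups on defined lysines, placed by writers and, for many of these lysines, removed by erasers. Methylation of H3K4, H3K36 and H3K79 mostly accompanies transcribed genes, whereas methylation of H3K9, H3K27 and H4K20 mostly accompanies repressed or compacted chromatin. In neural progenitors Ezh2, the catalytic subunit of Polycomb repressive complex PRC2, keeps genes of later stages silent, and the H3K27 demethylase Kdm6b and the Mll enzymes take part in switching them on. Kdm1a removes methyl groups from H3K4 within the CoREST complex.

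The promoters of 4 genes are shown, to give the start regions of 3 writers that passed the thresholds described below (Dot1l, Setd7 and Mll1) and of an eraser whose level was nearly equal in both groups (Kdm1a). Each runs 5′ to 3′ on the strand of the gene, from 250 bases before to 50 bases after the annotated start, and is taken from RefSeq on GRCm38.p6. They lie at chr10:80754953-80755252 on the plus strand (Dot1l) and, on the minus strand, at chr3:51560774-51561073 (Setd7), chr9:44881240-44881539 (Mll1, now Kmt2a) and chr4:136602674-136602973 (Kdm1a). Capitals mark the core of the YY1 motif.
Dot1l: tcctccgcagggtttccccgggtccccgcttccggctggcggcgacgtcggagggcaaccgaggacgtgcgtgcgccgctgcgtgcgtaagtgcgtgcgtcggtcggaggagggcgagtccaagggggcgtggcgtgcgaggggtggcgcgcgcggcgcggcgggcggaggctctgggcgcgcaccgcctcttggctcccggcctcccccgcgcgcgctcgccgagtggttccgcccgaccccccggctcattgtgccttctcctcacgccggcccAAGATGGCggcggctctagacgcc
Setd7: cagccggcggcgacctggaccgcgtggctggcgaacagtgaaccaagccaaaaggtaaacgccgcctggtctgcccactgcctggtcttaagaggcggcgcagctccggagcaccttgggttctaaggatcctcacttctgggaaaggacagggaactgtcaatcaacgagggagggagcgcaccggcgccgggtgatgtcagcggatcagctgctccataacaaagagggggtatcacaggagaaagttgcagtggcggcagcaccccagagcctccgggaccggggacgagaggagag
Mll1: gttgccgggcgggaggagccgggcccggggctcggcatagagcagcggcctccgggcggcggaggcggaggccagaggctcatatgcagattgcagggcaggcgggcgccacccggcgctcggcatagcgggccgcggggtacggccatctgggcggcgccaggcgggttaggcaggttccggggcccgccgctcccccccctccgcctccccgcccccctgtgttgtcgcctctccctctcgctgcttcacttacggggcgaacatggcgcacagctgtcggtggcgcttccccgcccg
Kdm1a: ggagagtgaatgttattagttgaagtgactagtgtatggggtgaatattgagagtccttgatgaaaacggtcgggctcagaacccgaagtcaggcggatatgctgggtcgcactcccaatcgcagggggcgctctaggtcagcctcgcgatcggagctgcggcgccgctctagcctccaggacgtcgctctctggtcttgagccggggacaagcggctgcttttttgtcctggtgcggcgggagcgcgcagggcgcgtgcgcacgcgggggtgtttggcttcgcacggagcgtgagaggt
The table held promoters for 40 of the 54 members, with 56 annotated starts. These 56 had a median of 26.5 CpG dinucleotides and a GC content of 63.4%, against 7 CpG and 52.7% over all 32851 promoters in the table. The core of an NRF1 motif, GCATGCGC, was searched on both strands because the study examines a factor of that name. This core was found in 0 of the 56 member promoters and in 891 of all promoters (2.71%). In its discussion the study lets NRF1 act through DNA elements of the antioxidant response and of Maf proteins. Those elements were not searched, so sites of that kind were not tested by this count. The YY1 core, AAGATGGC, was searched on both strands after the sequences had been seen and does not overlap the NRF1 core. It stood in 4 of the 56 (7.14%), those of Dot1l, Kdm5c, Suv39h1 and Suv39h2, and in 903 of all promoters (2.75%). The Dot1l sequence was among those seen before the search, and member promoters differ from all promoters in CpG and GC content. These shares therefore cannot show enrichment.

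Reads counted on genes ranged from 19316126 to 41169218 per library, so that 3 reads correspond to between 0.0714 and 0.151 CPM, the count of a gene scaled by the TMM size of its library. Epor itself, the deleted gene, had 57 and 68 reads in the wild type libraries, 7 and 19 in the EpoR-null libraries and 11 in the library labelled heterozygote. As CPM these were 2.35, 1.62, 0.353, 0.668 and 0.475 in the same order. The library labelled heterozygote thus lay between both EpoR-null libraries for Epor, and the difference between null and control did not pass the test (by edgeR's exact test, log2 fold change -1.51 and FDR = 0.28). That library also stood apart from the other 4 in markers of blood and vessels, with Hbb-bh1, an embryonic globin, at 12.6 CPM against 152 to 333. It is kept among the controls as the study did, and results without it are given where they differ.

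Of the 54 members, 52 were expressed above 1 CPM in at least 2 libraries and were tested. Kdm4d and Prdm14 had at most 3 reads in any library and were not. By edgeR's exact test, with p under 0.001 and FDR under 0.05 required together, 9 members were lower in the EpoR-null neural tubes (Prdm10, Dot1l, Mll1, Setd7, Mll2, Setd5, Kdm6b, Nsd1 and Whsc1) and 0 were higher. This is 17.3% of the members, where 4.77% of all 12703 genes tested passed, 3.84% lower and 0.929% higher. With FDR alone Kdm3b and Setd1a joined them, giving 11 members, where 7.31% of all genes passed. The log2 fold change was below 0 in 44 members and above it in 8, with a median of -0.34, against a median of 0.06 over all genes tested. Both EpoR-null libraries lay below every control in 32 members, where 22.1% of all genes did so and 21.2% had both above every control.

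**Figure D1:**
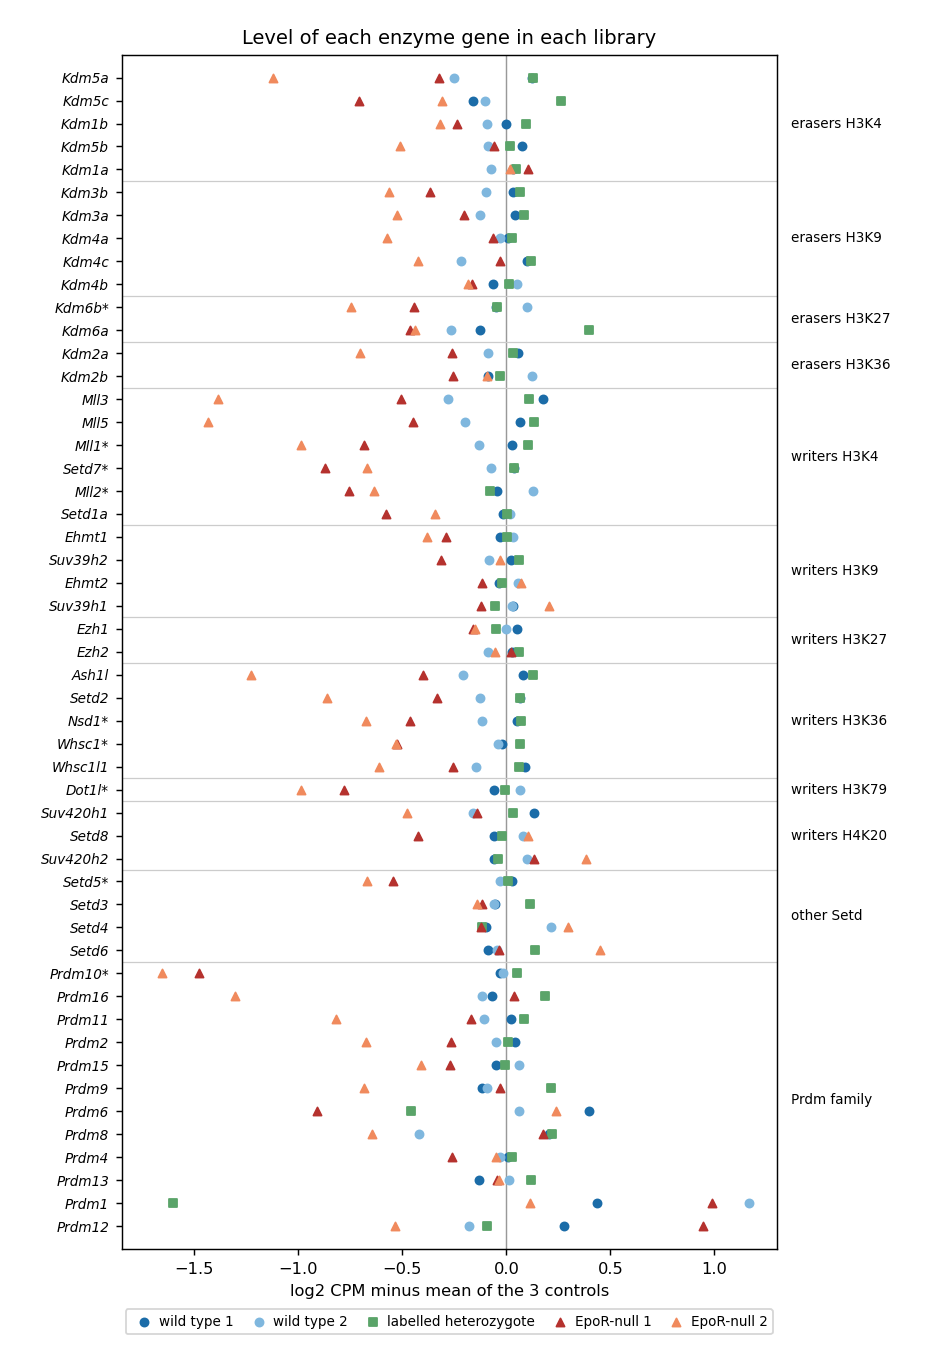
Each point is 1 library, plotted as log2 CPM minus the mean of the 3 controls (horizontal axis) for 51 of the 52 members tested (vertical axis, grouped by the lysine they act on). Asterisks mark the 9 members past both thresholds. Triangles of both EpoR-null libraries sit left of all controls for all 6 H3K4 writers and all 5 H3K36 writers, and mix with the controls for Ezh2, Ehmt2 and Kdm1a. Over all genes tested 22.1% had both EpoR-null libraries below every control.

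The number of members past the thresholds depended on the test and on single libraries. At the same thresholds, edgeR's quasi-likelihood F-test, which carries the uncertainty of each dispersion, passed 0 of the 52 members and 0% of all genes. Its lowest FDR, over members and over all genes, was 0.059. At an unadjusted p under 0.05 it listed 24 of the 52 members and 3052 of the 12703 genes tested. DESeq2 passed 12 members, where 8.09% of all genes passed. A fit without EpoR-null 1 or 2 leaves 1 null library, so its error holds no spread between nulls. Only fold changes are given for such fits. Without wild type 1 the exact test passed 4 members (Dot1l, Mll1, Prdm10 and Setd7), where 0.913% of all genes passed. Leaving out wild type 2 or the library labelled heterozygote left the same 6 (those 4 with Mll2 and Setd5), where 2.33% and 2% of all genes passed. In counts simulated from these libraries, with no trend by transcript length, the exact test exceeded its nominal FDR at 0.05. The FDR values of that test given here may thus be too low. False calls were not counted for both thresholds together.

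All 6 writers of H3K4 had both EpoR-null libraries below every control, where 22.1% of all genes did. Of these 6, 3 were lower by both thresholds, where 3.84% of all genes were, and the median log2 fold change was -0.80. Their transcripts were long, with a median of 11189 bases, which bears on the length trend described further on. In the longest of the 5 length groups given there 16.1% of all genes were lower by both thresholds. With the length and GC offsets given there 0 of the 6 passed, where 1.33% of all genes did. All 6 were still below 0 with offsets, with a median of -0.27 against 0.0041 over all genes. Mll1 (now Kmt2a), which trimethylates H3K4 and keeps Hox genes active, was at 94.7 and 84.6 CPM in the wild type libraries, 99.8 in the library labelled heterozygote, and 57.6 and 46.7 in the EpoR-null libraries. Its lowest control stood well above both null values (log2 fold change -0.83 ± 0.17 (SE), FDR = 0.00014, exact test). Setd7, which monomethylates H3K4 and several non-histone proteins, was measured at 96.1, 89.1 and 96.2 CPM in the controls in that order and at 51.2 and 58.8 in the nulls. The groups were again apart, by -0.77 ± 0.14 (FDR = 2.69e-05, exact test).

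Mll2 was read as Kmt2d, the enhancer monomethyltransferase, because Kmt2b has its own row under the older name Wbp7. It stood at 75.1, 84.5 and 73.2 CPM in the controls and at 45.8 and 49.7 in the nulls, and its log2 fold change was -0.70 ± 0.15 (FDR = 0.00047, exact test). Setd1a, which places H3K4 trimethylation within the SET1 complex, passed FDR but not the p threshold (log2 fold change -0.46 ± 0.14, FDR = 0.028, exact test). Its 3 controls lay within 148 to 151 CPM and its nulls were at 100.2 and 117.8. Without wild type 1, wild type 2 or the library labelled heterozygote its FDR was 0.34, 0.21 and 0.21 (exact test). Its log2 fold change was -0.34 without EpoR-null 1 and -0.58 without EpoR-null 2. Mll3, the paralogue of Mll2, and Mll5, a family member whose activity on histones is disputed, had larger fold changes than Mll1 but did not pass (by the exact test, log2 -0.90 with FDR = 0.08 and log2 -0.87 with FDR = 0.081). In both, the EpoR-null libraries stood far from each other. Mll5 was at 78.7 CPM in null 1 and 39.7 in null 2, with controls of 93.5 to 117.8, and Mll3 was at 27.8 and 15.1 with controls of 32.4 to 44.5.

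**Figure D2:**
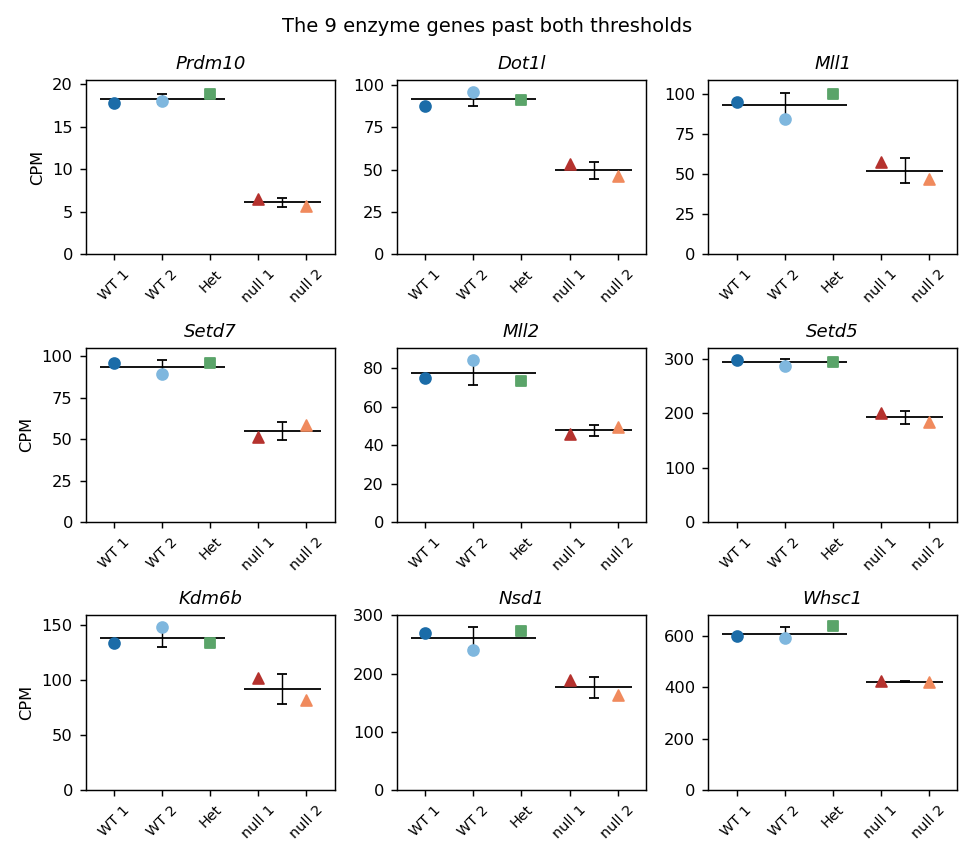
CPM (vertical axes, from 0) of the 9 members past both thresholds in each of the 5 libraries. Points are libraries, horizontal lines are group means and error bars are SD (n = 3 controls, n = 2 EpoR-null). In each of the 9 panels both EpoR-null libraries lie below all 3 controls, and Prdm10 shows the widest gap in proportion, with 17.8 to 18.9 CPM in the controls and 6.51 and 5.73 in the nulls.

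The 5 H3K36 writers, with a median transcript of 10105 bases, also had both EpoR-null libraries below every control, where 22.1% of all genes did. Of these 5, 2 passed, as did Dot1l, where 4.77% of all genes passed. With the length and GC offsets 0 of the 5 passed in the likelihood-ratio test and Dot1l did, where 1.33% of all genes passed. With offsets 3 of the 5 were below 0, with a median of -0.08. In the quasi-likelihood F-test with offsets, where 0 of all genes passed, the FDR of Dot1l was 0.18. Dot1l, the only known H3K79 methyltransferase, was at 87.6, 95.5 and 90.8 CPM in wild type 1, wild type 2 and the library labelled heterozygote and at 53.0 and 45.9 in EpoR-null 1 and 2. This was 54.1% of the control level (log2 fold change -0.89 ± 0.15, FDR = 1.27e-06, exact test), and Dot1l still passed when any 1 control was left out. Without EpoR-null 1 or 2 it was at -0.99 and -0.79. Whsc1 (now Nsd2), which dimethylates H3K36, had the second highest control level per kilobase among the members, 78.3 CPM per kb, and was at 599.7, 591.8 and 637.7 CPM in the controls against 423.7 and 422.1 in the nulls. The nulls differed from each other by less than any pair of controls, and the difference of -0.53 ± 0.13 passed (FDR = 0.0044, exact test). Nsd1, the related H3K36 dimethyltransferase, was at 270.1, 240.7 and 274.0 CPM in the controls and 189.3 and 163.6 in the nulls (log2 fold change -0.57 ± 0.15, FDR = 0.009, exact test). Whsc1 and Nsd1 no longer passed when any 1 control was left out. Without EpoR-null 1 or 2 Nsd1 was at -0.68 and -0.47. The log2 fold changes of Setd2, which trimethylates H3K36, of Ash1l and of Whsc1l1 were -0.58, -0.77 and -0.43, with no overlap between groups and an FDR of 0.064, 0.1 and 0.14 in the exact test.

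Of the 9 writers of H3K9, H3K27 and H4K20, whose marks are mostly repressive, 0 passed in the exact test, where 4.77% of all genes did. Ehmt1 alone of the 9 had an unadjusted p under 0.05 in the quasi-likelihood F-test, where 3052 of the 12703 genes tested did. Ehmt1 passed in DESeq2. The median log2 fold changes of the 3 classes were -0.09, -0.09 and -0.14, and their median transcripts of 4176.5, 3497 and 2774 bases were shorter than those of the H3K4 and H3K36 writers. Ezh2 had the highest level of all members per kilobase of transcript, 123 CPM per kb in the controls and 121.5 in the nulls. Its CPM values of 349.2, 322.1 and 357.3 in the controls and 347.2 and 330.2 in the nulls overlapped (log2 fold change -0.02 ± 0.14, FDR = 0.97, exact test), and this small value changed sign with the fit. Ezh1, its less active paralogue, was at 13.8 to 14.9 CPM in the controls and 12.8 and 12.9 in the nulls (log2 -0.16 ± 0.23, FDR = 0.77, exact test).

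Ehmt2 (G9a), which dimethylates H3K9, ran from 240.9 to 256.6 CPM in the controls and was at 227.5 and 258.7 in the nulls, so that 1 null was the lowest and the other the highest library. The difference was -0.02 ± 0.14 on the log2 scale (FDR = 0.96, exact test). Setd8, the H4K20 monomethyltransferase, was at 154.6 CPM in EpoR-null 1 and 222.8 in EpoR-null 2, on either side of its controls of 199.0 to 219.5 (log2 -0.14 ± 0.20, FDR = 0.76, exact test). Ehmt1, the partner of Ehmt2, was the member of these classes with the lowest FDR (0.11, exact test; log2 fold change -0.34 ± 0.13). Suv420h2, an H4K20 methyltransferase, was the one writer with both nulls above every control, at 59.0 and 70.2 CPM against 51.8 to 57.8 (log2 0.26 ± 0.16, FDR = 0.38, exact test).

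Among the erasers 1 of the 14 tested passed both thresholds, where 4.77% of all genes did. Kdm6b (Jmjd3), which removes methyl groups from H3K27, was at 133.3, 147.8 and 133.7 CPM in the controls and 101.6 and 82.1 in the nulls. It was lower by 0.59 ± 0.16 on the log2 scale, at 66.4% of control (FDR = 0.0083, exact test), and it no longer passed when any 1 control was left out. Without EpoR-null 1 or 2 its log2 fold change was -0.75 and -0.45. Kdm6a (Utx), the X-linked enzyme with the same substrate, was at 70.3, 63.8 and 101 CPM in the controls and 55.7 and 56.6 in the nulls, below every control but without passing (log2 -0.48 ± 0.24, FDR = 0.25, exact test). The high value of 101 CPM belonged to the library labelled heterozygote, without which the log2 fold change was -0.26.

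Kdm3b, an H3K9 demethylase, passed FDR alone (log2 fold change -0.47 ± 0.15, FDR = 0.03, exact test), with 156.5, 142.8 and 160.3 CPM in the controls and 118.6 and 103.4 in the nulls. Its paralogue Kdm3a was at 147.6 to 170.8 CPM in the controls and at 140.0 and 111.9 in the nulls (log2 -0.36 ± 0.17, FDR = 0.21, exact test). Without wild type 1, wild type 2 or the library labelled heterozygote the FDR of Kdm3b was 0.4, 0.11 and 0.26 (exact test). Without EpoR-null 1 Kdm3b was at -0.57 and Kdm3a at -0.53. Without EpoR-null 2 they were at -0.37 and -0.21. Kdm2b, which binds CpG islands and removes H3K36 methylation, had null values of 119 and 133.3 CPM, the second just under its lowest control of 133.7 (log2 -0.18 ± 0.15, FDR = 0.55, exact test). Without EpoR-null 1 it was at -0.10. Among the H3K4 erasers the log2 fold changes ran from -0.68 (Kdm5a, FDR = 0.14, exact test) to 0.06 (Kdm1a), and 0 of 5 passed. In the quasi-likelihood F-test 3 of the 5 had an unadjusted p under 0.05, where 3052 of the 12703 genes tested did. Kdm1a (Lsd1) was at 227.6, 211.3 and 229.8 CPM in the controls and 239.3 and 225.1 in the nulls, which overlapped (0.06 ± 0.14, FDR = 0.86, exact test). Per kilobase it was the eraser with the highest level, 73.6 CPM per kb in the controls and 76.7 in the nulls. Kdm5a, Kdm1b, Kdm2a, Kdm4a and Kdm4b had both nulls below every control without passing, and Kdm5b and Kdm4c overlapped.

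Erasers and writers were set side by side, as counts and medians. Of the 14 erasers tested 1 passed (7.14%), 11 had both nulls below every control, and the median log2 fold change was -0.33. Of the 21 writers 6 passed (28.6%), 14 had both nulls below every control, and the median was -0.46. Over all genes tested 4.77% passed and 22.1% had both nulls below every control. The median transcript had 5557.5 bases in the erasers tested and 6808 in the writers, against 3491 over all genes tested. The CPM of all erasers summed to 1795, 1721 and 1912 in the controls and 1525 and 1351 in the nulls, and those of all writers to 3175, 3076 and 3239 against 2474 and 2457. Both sums were lower in the EpoR-null libraries without overlap. The ratio of the eraser to the writer sum was 0.565, 0.56 and 0.59 in the controls and 0.616 and 0.55 in the nulls, so that the nulls lay on either side of the controls. No test was made of these sums, since the genes were chosen with earlier results known. Without wild type 1, 0 erasers and 3 writers passed, where 0.913% of all genes did. Leaving out wild type 2 or the library labelled heterozygote left 0 erasers and 4 writers, where 2.33% and 2% of all genes passed. Without EpoR-null 1 the median log2 fold change was -0.49 for the erasers and -0.53 for the writers. Without EpoR-null 2 these medians were -0.25 and -0.41.

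Prdm10, a zinc finger protein with a PR domain, had the largest fold change of all members. It was at 17.8, 18.1 and 18.9 CPM in the controls and at 6.51 and 5.73 in the nulls, or 33.5% of control (log2 fold change -1.58 ± 0.25, FDR = 4.14e-07, exact test). Like Dot1l it still passed when any 1 control was left out. The other 12 Prdm genes tested did not pass, with log2 fold changes from -0.50 (Prdm16, a regulator of progenitors) to 0.37 (Prdm12, which specifies spinal interneurons and sensory neurons). Prdm2 (Riz1), an H3K9 methyltransferase, was at 133.9 to 143.0 CPM in the controls and 115.6 and 87.0 in the nulls (log2 -0.46 ± 0.17, FDR = 0.091, exact test). It was at -0.67 without EpoR-null 1 and at -0.27 without EpoR-null 2. Several members of this family were low and scattered. Prdm1, a regulator of germ cell and plasma cell fate, ran from 0.518 CPM in the library labelled heterozygote to 3.95 in wild type 2, with nulls of 3.48 and 1.86 between them.

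Setd5, a member of the SET family whose activity on histones is disputed, was at 299.2, 287.3 and 295.3 CPM in the controls and 201.5 and 184.4 in the nulls. The controls were within a narrow range and the nulls far below it (log2 fold change -0.61 ± 0.14, FDR = 0.00079, exact test). Setd3, the methyltransferase of actin, and Setd4 and Setd6, whose substrates include proteins other than histones, did not pass, with log2 fold changes of -0.13, 0.09 and 0.23.

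Genes of proteins that work with these enzymes were tested in the same way, with 4.77% of all genes passing. In PRC2, the complex of Ezh1 and Ezh2, 0 of 9 partner genes did in the exact test. In the quasi-likelihood F-test 0 of the 9 had an unadjusted p under 0.05, where 3052 of the 12703 genes tested did. Their median log2 fold change was 0.05, with the histone chaperones Rbbp4 and Rbbp7 at 0.21 and 0.11. Among the 12 partners of the Mll and Setd1 enzymes 2 were lower, Hcfc1 (-0.72, FDR = 0.00018, exact test), a chromatin-bound cofactor, and Ncoa6 (-0.56, FDR = 0.0017), a coactivator in the Mll3 and Mll2 complexes. The core subunit Wdr5 and the Setd1 subunit Wdr82 were at 0.03 and -0.02, and the chromatin tether Psip1 at -0.20. Of 10 further genes of H3K9 methylation, partners, readers and the Setdb enzymes, 1 was lower, Atf7ip (-0.84, FDR = 8.88e-05, exact test), which stabilises Setdb1. Trim28 was at 0.19 and the heterochromatin protein Cbx5 at -0.36. Setdb1 and Setdb2, which the naming rule leaves out, were at -0.17 and -0.54 without passing (FDR = 0.5 and 0.25, exact test).

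Of 9 partners of Kdm1a 1 passed, Rcor1 (log2 fold change -1.06, FDR = 0.02, exact test), the CoREST scaffold itself. It was at 40.3, 34.6 and 35.6 CPM in the controls and at 23.0 and 12.3 in the nulls, while Hdac2 and Rcor2 were at 0.28 and 0.07. Of 7 Dot1l and elongation partners 0 passed in the exact test, and all 7 fold changes were below 0 (Mllt1 -0.02, Aff4 -0.57). In the quasi-likelihood F-test 2 of the 7 had an unadjusted p under 0.05, where 3052 of the 12703 genes tested did. Of 12 other tested enzymes of histone methylation outside the naming rule 2 were lower, the H3K9 demethylase Phf2 (-0.51, FDR = 0.014, exact test) and Wbp7, which is Kmt2b (-0.52, FDR = 0.0086). Jmjd1c was at -0.73 and Smyd5 at 0.04. Among 12 enzymes that supply the methyl donor or the cosubstrate of the demethylases 1 was lower, Mtr (-0.63, FDR = 0.0024, exact test), the methionine synthase, while Ahcy and Mat2a were at 0.07 and -0.11.

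Transcript length moved with these results. All 9 members past the thresholds fall in the longest of 5 equal groups of the genes tested by length, with a transcript of 5427 bases or more, where 27 of the 52 members lie. In that group 16.1% of all genes passed, all of them lower, and the median log2 fold change was -0.36 over all genes and -0.53 over the 27 members, 9 of which passed. In the other 4 groups, from short to long, 3.81%, 0.994%, 0.795% and 2.11% of all genes passed and 0 of 25 members did. The median transcript had 3491 bases over all genes tested, 5944 over the members and 7411 over the 9. Across genes, which share the same 5 libraries, the Spearman correlation of fold change with length was -0.633 over 12586 genes and -0.854 over the 52 members. The trend was present in both EpoR-null libraries. Relative to the controls the median log2 level of the longest group was -0.26 in EpoR-null 1 and -0.53 in EpoR-null 2, and that of the shortest group 0.21 and 0.48, while the 3 controls stayed within 0.06 of 0.

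**Figure D3:**
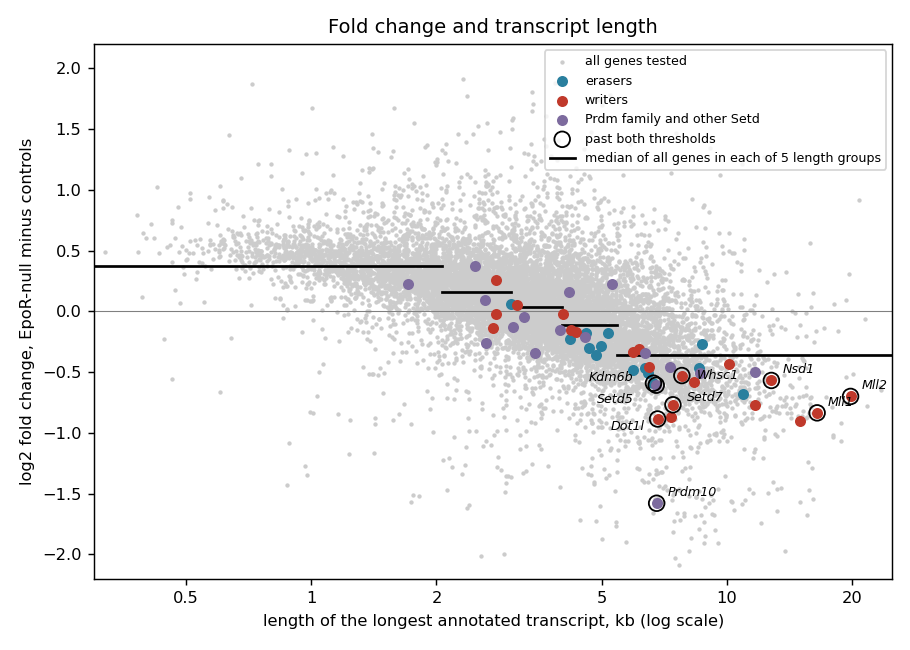
Log2 fold change of EpoR-null against controls (vertical axis) by length of the longest annotated transcript in kilobases (horizontal log axis) for the genes tested, with 72 genes outside the axes not drawn. Grey points are all genes, coloured points the 52 members, rings the 9 past both thresholds, and black lines the median of each of the 5 length groups, which go from 0.37 in the shortest to -0.36 in the longest. The ringed members lie at the long end, and Prdm10 and Dot1l lie farther below the line of their group than Nsd1 and Whsc1.

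Offsets that remove each library's trend with transcript length and GC content were therefore placed in the model, with edgeR's likelihood-ratio test. Without offsets this test passed the same 9 members as the exact test. With them it passed 168 of 12586 genes (1.33%), and 2 members, Prdm10 (log2 fold change -1.23, FDR = 0.00035) and Dot1l (-0.64, FDR = 0.0021). Kdm6b and Setd7 were then at -0.38 and -0.38 (FDR = 0.23 and 0.78, likelihood-ratio test), Setd5 at -0.28, Mll1 at -0.20, Whsc1 at -0.08, Mll2 at -0.04 and Nsd1 at 0.02. The median became -0.14 over the members, 45 of which were then below 0 against 44 without offsets, and 0.0041 over all genes. Kdm5b, Nsd1 and Whsc1l1 turned to above 0, and Kdm1a, Setd4, Setd6 and Suv39h1 to below 0. Of the partner and marker genes past the thresholds, Rcor1 (-0.86, FDR = 0.028, likelihood-ratio test) and Msi1 (-0.66, FDR = 0.0053) still passed with offsets, and Hcfc1, Ncoa6, Atf7ip, Phf2, Wbp7 and Mtr did not (FDR from 0.064 to 0.9998). Between the classes the order turned, with -0.15 for the erasers and -0.10 for the writers. Whether the length trend is a property of the RNA preparations or of the embryos cannot be told apart here.

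**Figure D4:**
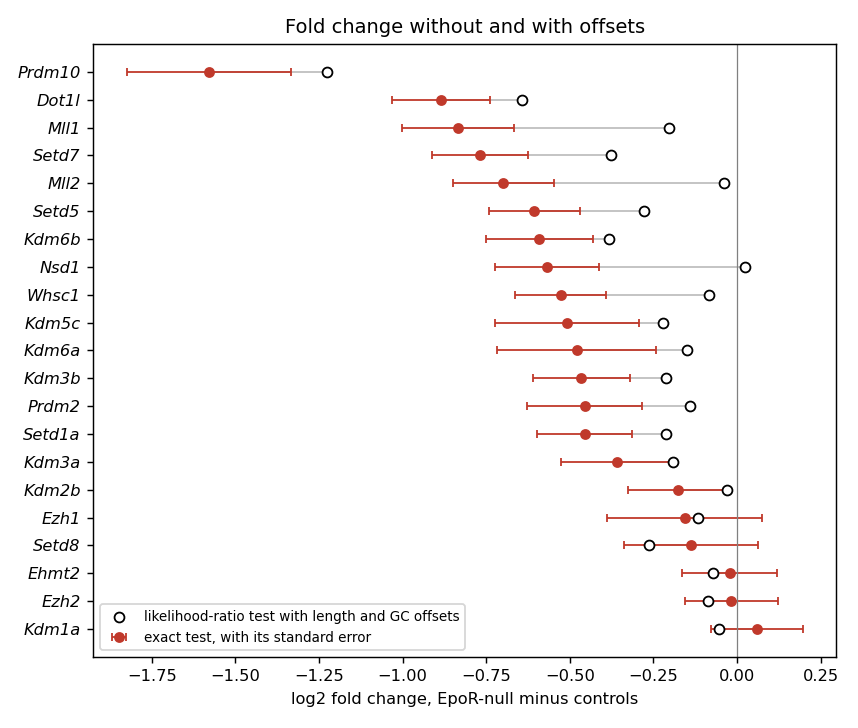
Log2 fold change of EpoR-null against controls (horizontal axis) for the 21 named members (vertical axis). Filled points are the exact test with its standard error and open points the likelihood-ratio test with length and GC offsets. With offsets Prdm10 is at -1.23, Dot1l at -0.64, Kdm6b and Setd7 at -0.38 and Setd5 at -0.28. Mll1, Mll2, Nsd1 and Whsc1 come to between -0.20 and 0.02.

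The libraries differed in the sex of the embryo, which bears on Kdm5c, Kdm6a and Suv39h1 on the X chromosome. Xist, the RNA of the inactive X, was at 670.3 CPM in the library labelled heterozygote and 218.4 in EpoR-null 2, and at 0.33 CPM or less in the other 3, which had reads of the Y-linked Ddx3y at 38.5 to 45.4 CPM. Kdm5c, an H3K4 demethylase that escapes X inactivation, was at 206.0 and 214.2 CPM in the wild type libraries and 140.8 in EpoR-null 1, all with Y reads, and at 276.3 in the library labelled heterozygote and 185.4 in EpoR-null 2, both with Xist. Among libraries of like kind the log2 ratio of null to control was -0.58 (3 libraries with Y reads) and -0.58 (2 with Xist). Over all 5 libraries it was -0.51 ± 0.22 and did not pass (FDR = 0.15, exact test). It was -0.72 without EpoR-null 2, -0.32 without EpoR-null 1 and -0.37 without the library labelled heterozygote. For Kdm6a, which also escapes, the same ratios were -0.27 and -0.84, and for Suv39h1, which trimethylates H3K9, -0.15 and 0.26. With a single null library of each kind these ratios have no test. Reads from Kdm5c and its Y-linked copy, and from Kdm6a and Uty, are hard to separate where the sequences match, but Kdm5d had at most 1 read in the libraries with Xist.

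**Figure D5:**
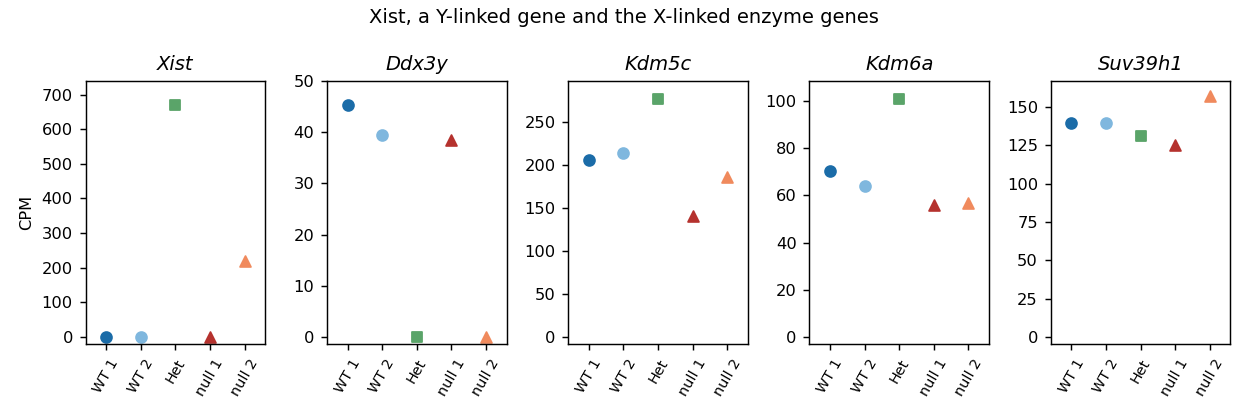
CPM (vertical axes, from 0) of Xist, the Y-linked Ddx3y and the 3 X-linked members in each library. Xist is high in the library labelled heterozygote (670.3) and in EpoR-null 2 (218.4), and Kdm5c is lower in each EpoR-null library (140.8 and 185.4) than in any control.

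Cell type markers were measured beside the enzymes. Of 7 neural progenitor markers 1 passed, Msi1, lower with a log2 fold change of -0.51 (FDR = 0.0071, exact test). Both nulls were below every control for 2 of the 7, Msi1 and Sox2, where 22.1% of all genes were, and 5 overlapped. The 7 summed to 1587 to 1793 CPM in the controls and 1320 to 1568 in the nulls, without overlap. Nes, the highest of them, was at 777 CPM in EpoR-null 1 and 368 in EpoR-null 2, on either side of its controls of 579 to 737. The 5 markers of newborn neurons summed to 254.6 to 416.5 CPM in the controls, 863.5 in EpoR-null 1 and 171.8 in EpoR-null 2, so that the nulls stood on either side of the controls. Markers were also tested for newborn neurons (5), neural crest (4), primitive blood (5), endothelium (5), paraxial mesoderm (4) and surface ectoderm (2). Of these markers 0 passed in the exact test. In the quasi-likelihood F-test 0 of them had an unadjusted p under 0.05, where 3052 of the 12703 genes tested did. Summed CPM were 24.1 to 110.5 in the controls and 87.5 to 118.3 in the nulls for neural crest, 43.3 to 1074 and 954 to 1674 for blood, 10.8 to 234.5 and 104.1 to 197.3 for endothelium, 7.82 to 36.6 and 28.3 to 67.9 for mesoderm, and 5.01 to 24.2 and 14.6 to 29.6 for surface ectoderm. The lowest control was the library labelled heterozygote in each of these 5 sums, and the globin Hba-a1 was at 0 in all libraries. The part of these differences in the levels of the enzymes was not tested. In whole neural tubes fewer cells of a type and less RNA per cell cannot be told apart.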

How the data were processed

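Gene counts of 5 polyA RNA-seq libraries were used. The deposited values are raw read counts per gene, 1 table per library, which the authors obtained with HTSeq after trimming with Trimmomatic and alignment with Tophat. The submitters' processing notes name Trimmomatic 0.32, TopHat2 2.1.0, HTSeq 0.6.1 and the mm9 build, whereas the study's methods name a human build for RNA-seq. Reads outside genes (8.12% to 11.0%) were left out. HTSeq leaves out reads that fit several places, so genes with close copies are undercounted.

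EpoR-null libraries were compared with the 3 controls in edgeR 4.0.16 under R 4.3.3 (TMM normalization, tagwise dispersions, exactTest, Benjamini-Hochberg FDR over the 12703 genes with CPM above 1 in at least 2 libraries), with the thresholds of the study, p under 0.001 and FDR under 0.05. Alternatives were the quasi-likelihood F-test, DESeq2 1.42.0, other scalings and filters, offsets for length and GC content (loess, span 0.5), the library labelled heterozygote as its own group, and each library left out. Scripts were tested on simulated data, in which the share of false genes at FDR under 0.05 in the exact test exceeded that level. CPM use TMM library sizes, and log2 CPM plotted by library a prior count of 2. Standard errors come from the negative binomial information. Transcript lengths and GC contents are those of the longest GENCODE M21 transcript, by symbol or RefSeq synonym, for 99.1% of genes tested and all 52 members tested.

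Genes named are all members past the thresholds or FDR alone, the member of each class with the highest mean CPM, Kdm6b, Kdm1a, Ezh1, Ezh2, Dot1l, Kdm5c and Kdm6a, and of each partner list the genes past the thresholds with the 2 others highest in CPM. Further members named here, such as Mll3, Mll5, Suv420h2 and Suv39h1, were chosen after their values were seen. Members, classes and lists were chosen with earlier results of these data known. Libraries are taken as separate embryos. No pair agreed within sampling noise (chi-square per degree of freedom of 11.95 or more). The values of 1 member are not reported here.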

Additional observations from a re-analysis of the deposited data

Results flagged for a closer look

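Suv39h1, an X-linked gene whose enzyme trimethylates H3K9, was flagged because the EpoR-null libraries moved opposite ways within the libraries of like sex. The log2 ratio of null to control was -0.15 among the libraries with Y reads (125.4 CPM in EpoR-null 1 against 139.5 and 139.2 in wild type) and 0.26 among those with Xist (157.3 CPM in EpoR-null 2 against 131.3 in the library labelled heterozygote). The difference between them was not tested, since there is 1 null library of each kind. Opposite directions of this kind were found in 9 of the 52 members tested, of which Suv39h1 is the only X-linked gene. The same count was not made over all genes, so the 9 cannot be set against a background share.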

How the results depend on the processing

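The 9 members past the thresholds kept a negative fold change in every alternative run, with the exception of Nsd1 under the offsets. No members passed under the quasi-likelihood F-test (0), with the library labelled heterozygote as its own group (0, lowest FDR 0.31), or under the quasi-likelihood F-test with offsets, without (0) or with (0) the replicate block, and 2 passed under the likelihood-ratio test with offsets. In the fits where no member passed, 0 of all genes passed too. Erasers past the thresholds numbered 0 in these 5 fits and in the quasi-likelihood F-test with the replicate block, and 2 under DESeq2 and with FDR alone. For writers the count was 0 in the 4 fits without any member and 1 under the likelihood-ratio test with offsets. With offsets the median log2 fold change was -0.15 for erasers (-0.14 with the block) and -0.10 for writers (-0.12 with the block). Leaving out 1 library at a time gave 4 to 21 members, 0 to 7 erasers and 3 to 11 writers, with medians of -0.49 to -0.25 for erasers and -0.53 to -0.41 for writers. Over all genes, 606 passed in the exact test, 1028 in DESeq2 and 168 with offsets. The exact test passed 115 without wild type 1, 294 without wild type 2 and 253 without the library labelled heterozygote. The share of lower genes among those passed by the exact test was 80.5%, and 96.5%, 95.9% and 94.5% without each control in that order. It was 91.4% with the replicate block, 89.6% without a filter and 86.5% with library size only. The replicate numbers of the labels pair only 2 null with 2 wild type libraries and no shared litter or day is stated. The difference between replicates 1 and 2 correlated at 0.427 across genes between both genotypes. With the number as a block the quasi-likelihood F-test passed 291 genes (2.29%) and 6 members (Dot1l, Mll1, Mll2, Prdm10, Setd5 and Setd7). Signs turned for small values. Leaving out 1 library gave -0.1209 to 0.0673 for Ehmt2 (above 0 without wild type 2, at 0.0065, and without EpoR-null 1), -0.0605 to 0.0167 for Ezh2 (above 0 without the library labelled heterozygote, at 0.0126, and without EpoR-null 2) and -0.4276 to 0.1017 for Setd8 (above 0 without EpoR-null 1). Ezh2 was also at 0.0012 with the block and 0.0132 with the library labelled heterozygote as its own group. Kdm1a was at -0.0529, -0.053 and -0.0271 under the 3 offset fits, and Nsd1 at 0.0231 under both offset fits without the block. The causes were not tested. Read depth limits Kdm4d and Prdm14, with at most 3 reads in a library.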
